A study of Homo sapiens with 6 samples.

Results

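The mRNAs of the poly(A) binding proteins and of the proteins that bind them were followed in an ORC1 RNA immunoprecipitation. The 7 genes, PABPC1, PABPC3, PABPC4, PABPC1L, PABPN1, PAIP1 and PAIP2, were taken by gene symbol from a table of 23013 genes. RNA that came down with ORC1, the subunit of the origin recognition complex that helps to mark replication origins, had been sequenced from nuclei of HCT116, a human colorectal cancer line, grown without treatment. There were 3 libraries of nuclear input RNA taken without antibody and 3 libraries made with an anti-ORC1 antibody (ORC1 IP), each labelled as RIP replicate 1, 2 or 3. All 6 came from the same cell line, so the cells behind each group are those of 1 tumour, and a library made with a control antibody was not analysed here. The study describes its ORC1 RIP as done in triplicate and its experiments as independent, but no source used here says that the 3 replicates came from separate cultures, so p-values measure the spread between these libraries, which may be technical.

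Poly(A) binding proteins coat the adenosine tail at the 3′ end of mRNAs. In the nucleus, PABPN1 binds the growing tail and stimulates the poly(A) polymerase. In the cytoplasm, proteins of the PABPC family hold the tail, contact the cap-binding complex through eIF4G to promote translation, and act with the deadenylases that shorten the tail. PAIP1 binds PABPC proteins and promotes translation, whereas PAIP2 displaces them from the tail and represses it. The mRNA of PABPC1 is itself regulated in translation, through an adenosine-rich stretch in its own leader that its protein product can bind.

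The ORC1 IP libraries were the deeper ones, with 25134156 to 36008733 reads on genes against 13703033 to 17248924 in the inputs. ORC1 IP 2 stood apart, since transcripts of the mitochondrial genome made up 6.0% of its reads against 0.257% to 3.28% in the other libraries, and it held 116695 normalised counts of the nuclear RNA MALAT1 against 10644 to 35633 elsewhere. Calls that change without this library are given with and without it, and whether these shares have a part in the values of ORC1 IP 2 was not tested. The epithelial markers EPCAM, KRT8, KRT18, KRT19 and CDH1 were present in every library, with EPCAM between 1656 and 4516 normalised counts. Of markers of other cell types, ALB and GFAP lay between 0 and 6.97 normalised counts and COL1A1 lay between 161 and 787. PTPRC, PECAM1 and COL1A2 were looked up but were not among the 23013 genes.

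The 4 cytoplasmic family members had more counts in every ORC1 IP than in any input, while values of the nuclear PABPN1 and of both interacting proteins overlapped between the groups. PABPC3 was 3.53-fold higher in the ORC1 IP and was the 1 member of 7 that passed the test across all genes (limma on log2(normalised count + 1), Benjamini-Hochberg adjusted p under 0.05), where 2.28% of the 16513 genes tested were called higher. All 7 members were among the genes tested, which had a mean of at least 10 normalised counts over the libraries. No member was called lower, against a background of 1.42%, and none was lower at an unadjusted limma p below 0.05 or in edgeR or DESeq2 tests on recovered reads (0 in each). In limma, PABPC3 and PABPC1L, 2 members, passed the threshold that the study used (log2 fold change above 1 and unadjusted p below 0.05), which 10.9% of genes passed. The study applied this threshold to DESeq2. With DESeq2 on recovered reads, PABPC1 passed as well (log2 fold change 1.60, DESeq2 unadjusted p = 0.000206). That made 3 members, against 10.8% of genes. Groups that did not overlap, with the ORC1 IP higher, were found for 4 of 7 members against 12.7% of genes. The median log2 fold change of the 7 was 0.98, with 6 of 7 above 0, beside a median of 0.01 and 50.7% above 0 over all genes tested. The members are not independent of each other, since PABPC1 and PABPC3 are close copies that may share reads. They were also chosen with earlier results of these data known. In these bulk libraries, an RNA held by fewer cells cannot be told apart from less of that RNA per cell.

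**Figure D1:**
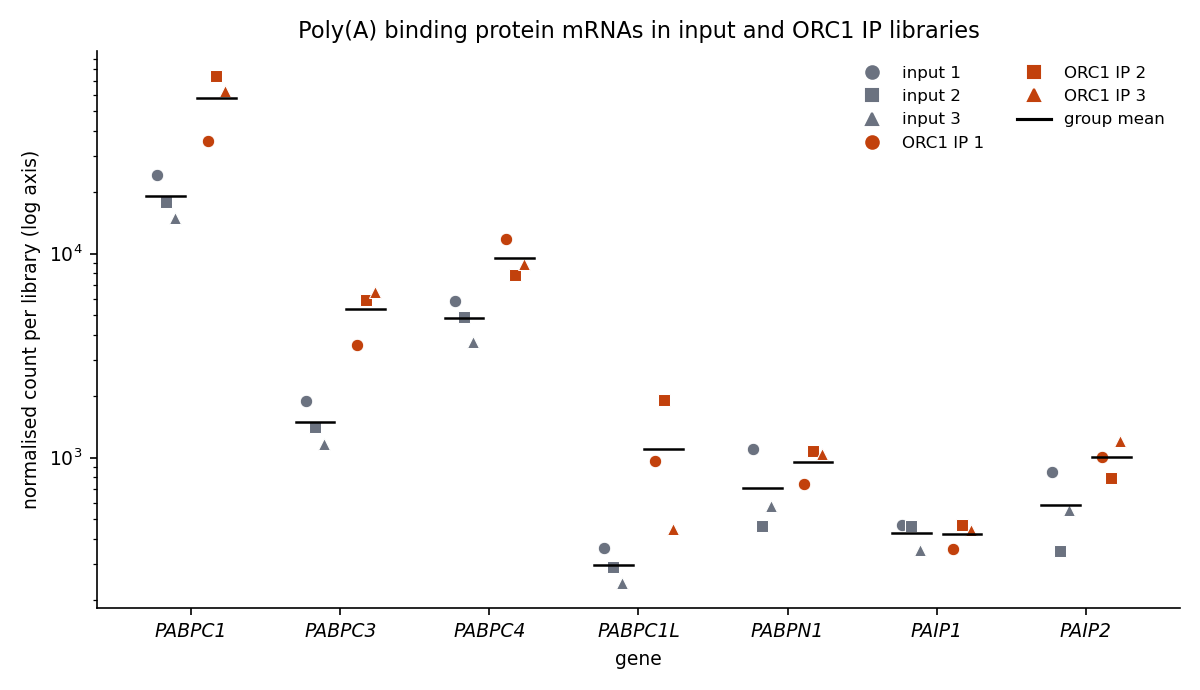
Normalised counts of the 7 genes in each library on a log axis, with inputs in grey, ORC1 IPs in orange, the marker shape giving the replicate number and bars at the group means (n = 3). The inputs and ORC1 IPs of PABPC1, PABPC3, PABPC4 and PABPC1L do not overlap, while those of PABPN1, PAIP1 and PAIP2 do.

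PABPC1 (ENSG00000070756), the main cytoplasmic poly(A) binding protein, lies on chromosome 8 (100685816 to 100722809, minus strand, GENCODE v44 on GRCh38) and its canonical transcript has 15 exons and 2861 nt. It had 24274, 18004 and 14958 normalised counts in inputs 1, 2 and 3, against 35758, 74232 and 63075 in the ORC1 IPs in the same order. The lowest ORC1 IP was thus above the highest input, and ORC1 IPs 2 and 3 lay well above ORC1 IP 1. The mean went from 19079 ± 4750 to 57689 ± 19795 (SD, n = 3), 2.95-fold (log2 1.56 ± 0.88 SE, 95% CI -0.36 to 3.48), and the difference was not called (limma adjusted p = 0.333). The call depended on how the spread was estimated. DESeq2 on the recovered reads called PABPC1 (adjusted p = 0.00572), edgeR did not (adjusted p = 0.217), and limma without its intensity trend gave an SE of 0.42 and an adjusted p of 0.0913. Without ORC1 IP 2, where PABPC1 was highest, the log2 fold change was 1.34 and the limma adjusted p was 0.0522. DESeq2 called 3 of the 7 members higher, PABPC1, PABPC3 and PABPC1L, against 6.6% of 18988 genes.

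PABPC4 (ENSG00000090621) encodes a second cytoplasmic poly(A) binding protein, first described as induced in activated T cells. It lies on chromosome 1 (39560709 to 39576790, minus strand, 16 exons, 3142 nt). Inputs 1, 2 and 3 held 5880, 4920 and 3673 normalised counts, and ORC1 IPs 1, 2 and 3 held 11849, 7825 and 8871. Here ORC1 IP 1 was the highest and ORC1 IP 2 the lowest of its group, the reverse of PABPC1, and the groups did not overlap. The means were 4825 ± 1107 and 9515 ± 2088 (SD, n = 3), and the difference was not called (log2 fold change 0.98 ± 0.50 SE, limma adjusted p = 0.274). It passed only without ORC1 IP 2 among the 18 alternatives, at a log2 fold change of 1.11 and a limma adjusted p of 0.0495, where 11.9% of all genes were called higher.

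PABPC1L (ENSG00000101104), the family member known from oocytes and early embryos, lies on chromosome 20 (44910060 to 44959035, plus strand, 15 exons, 2141 nt). It had 362, 290 and 245 normalised counts in the inputs, in replicate order, and 961, 1909 and 448 in the ORC1 IPs. ORC1 IP 2 was far above ORC1 IP 3, and all 3 lay above the inputs. Its log2 fold change of 1.66 ± 0.47 (SE, 95% CI 0.63 to 2.69) missed the threshold on adjusted p (limma adjusted p = 0.0691, unadjusted p = 0.00410). With the replicate number as a block, limma called it (adjusted p = 0.0469), as did DESeq2 (adjusted p = 0.0190). Without a block, edgeR (adjusted p = 0.0460) and DESeq2 (adjusted p = 0.00664) also called it. Without ORC1 IP 2 the log2 fold change was 1.15 (limma adjusted p = 0.0543). At 184 to 343 recovered reads per input, it was the member with the fewest reads in the inputs, and none of its 50-base stretches was found elsewhere in the genome.

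PABPC3 (ENSG00000151846) is a single-exon copy of PABPC1, described as a testis gene, on chromosome 13 (25096136 to 25099254, plus strand, 3119 nt). It had 1898, 1422 and 1170 normalised counts in the inputs and 3585, 5935 and 6523 in the ORC1 IPs, each in replicate order. Every ORC1 IP was above every input, and ORC1 IP 1 was again the lowest of its group. The mean rose from 1497 ± 370 to 5348 ± 1554 (SD, n = 3), which was 1.82 ± 0.42 on the log2 scale (SE, 95% CI 0.91 to 2.73) and passed the test (limma adjusted p = 0.0369). The call held in 10 of 17 alternatives. It held without ORC1 IP 2 (adjusted p = 0.00648) and without ORC1 IP 1 (0.0331), but not without ORC1 IP 3 (0.108), input 1 (0.0524), input 2 (0.180) or input 3 (0.294), nor with the replicate block in limma (0.0627) or total count scaling (0.102).

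Whether the PABPC3 counts are those of PABPC3 depends on how reads were divided between near-identical copies, and the sources used here do not give how the authors counted reads that match several genes. Over 2458 aligned bases and gaps, the transcripts of PABPC3 and PABPC1 were 92.3% identical. Of all 50-base stretches of the PABPC3 transcript, 5.99% were found elsewhere in the genome, and 8.04% of those of PABPC1 were found in PABPC3. Most stretches of 50 bases therefore differ between both genes in at least 1 base. In the annotation, 67.0% of the PABPC3 exon is also covered by a gene on the same strand that has no value in the table (ENSG00000289006). The following stretches were chosen for their density of differences, so that a reader can see what separates a copy from its parent. Capitals mark the bases that differ from PABPC1, 4 in PABPC3 (chr13:25097681-25097720, plus strand, GRCh38) and 5 in the processed pseudogene PABPC1P4 (chr12:63823514-63823553, plus strand, GRCh38).
PABPC3: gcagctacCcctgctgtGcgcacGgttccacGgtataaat
PABPC1P4: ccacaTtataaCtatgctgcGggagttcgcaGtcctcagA

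Of 8 further genes named for these families, 4 passed the filter on low values and 2 of these, both pseudogenes of PABPC1, were called higher. PABPC1P4 (ENSG00000255642; chromosome 12, 63822021 to 63823895, plus strand) had 1049, 892 and 659 normalised counts in the inputs and 1686, 3477 and 2754 in the ORC1 IPs (log2 fold change 1.57 ± 0.39 SE, limma adjusted p = 0.0480). Over the 6 libraries its values followed those of PABPC1 with a Pearson r of 0.997, the closest of the 11406 genes compared. Its sequence was 93.6% identical to that of PABPC1 over 1907 aligned bases and gaps. Whether its counts include reads of PABPC1 was not tested. PABPC1P4 was called in 9 of 17 alternatives, and its adjusted p rose to between 0.0662 and 0.318 without any 1 input or without ORC1 IP 3, and to 0.0675 with the replicate block in limma.

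PABPC1P3 (ENSG00000230673; chromosome X, 74583088 to 74583546, minus strand) had 346, 89.8 and 136 normalised counts in the inputs and 535, 1359 and 1122 in the ORC1 IPs (log2 fold change 2.52 ± 0.51 SE, limma adjusted p = 0.0239). Over 458 aligned bases and gaps it was 96.3% identical to PABPC1. Its annotated 459 nt also lie wholly within an exon of RLIM on the same strand. Reads there could thus come from the pseudogene, from PABPC1 or from RLIM, and their source was not tested. RLIM itself, named because of this overlap, had 2298 ± 511 normalised counts in inputs against 3438 ± 1226 (SD, n = 3), with overlapping groups (log2 fold change 0.55, limma adjusted p = 0.488). PABPC1P3 was called in 12 of 17 alternatives. Its call was lost without input 2 (limma adjusted p = 0.0958), input 3 (0.176) or ORC1 IP 3 (0.0899), with total count scaling (0.0984) and in limma without the trend (0.0624). The other genes that passed the filter, PABPC1P1 (log2 fold change 0.10, limma adjusted p = 0.944) and PAIP2B (0.08, adjusted p = 0.945), were not called. PABPC1P2, PABPN1L, PAIP1P1 and the read-through gene BCL2L2-PABPN1 were under the filter. PABPC1, PABPC3 and the PABPC1 pseudogenes were also summed into 1 gene, an alternative chosen after seeing the data. The log2 fold change was 1.59 ± 0.93 (SE) and was not called (limma adjusted p = 0.352). In replicate order, the sums were 27577, 20433 and 16941 normalised counts in inputs, against 41585, 85037 and 73497 in ORC1 IPs. The groups thus did not overlap. The sum was fitted only with the intensity trend. Without that trend the SE of PABPC1 alone was 0.42 instead of 0.88.

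**Figure D2:**
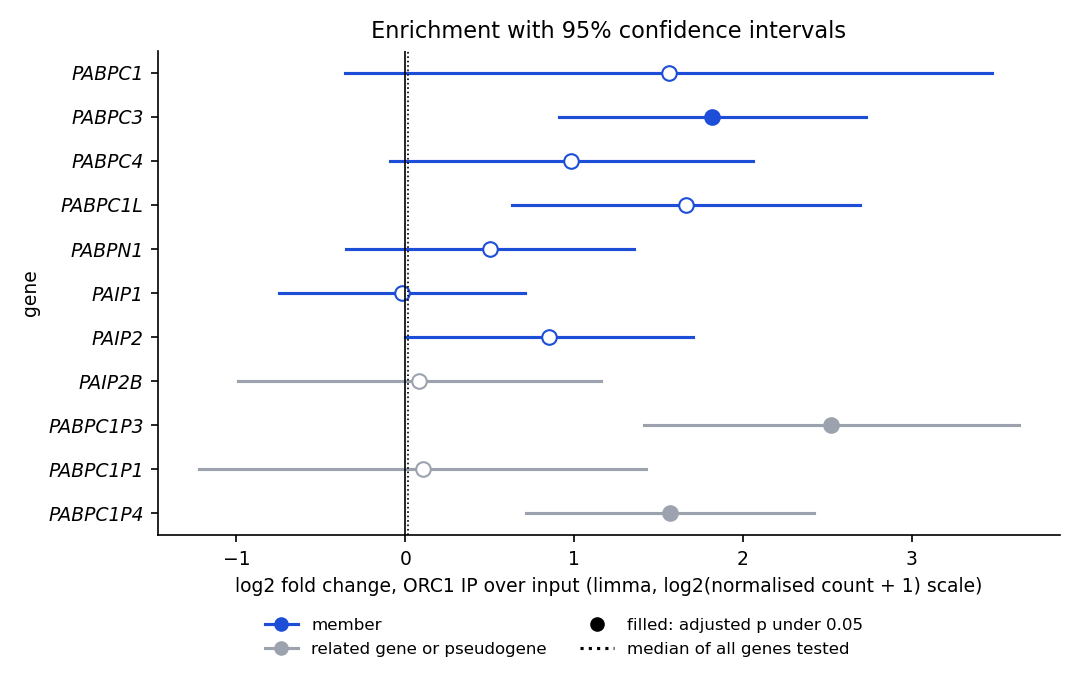
Log2 fold change of the ORC1 IP over input with its 95% confidence interval (limma, n = 3 against 3) for the 7 members (blue) and the 4 related genes that passed the filter (grey), with filled points at an adjusted p under 0.05 and a dotted line at the median of all genes tested. PABPC3, PABPC1P3 and PABPC1P4 are filled, and the widest interval is that of PABPC1, from -0.36 to 3.48.

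PABPN1 (ENSG00000100836), the nuclear poly(A) binding protein, lies on chromosome 14 (23321457 to 23326163, plus strand, 7 exons, 1811 nt). It had 1104, 460.2 and 579 normalised counts in the inputs and 744, 1074 and 1048 in the ORC1 IPs, each in replicate order. Input 1 was the highest of all 6 libraries, so the groups overlapped. The means of 714 ± 342 and 955 ± 184 (SD, n = 3) differed by 0.50 ± 0.39 on the log2 scale (SE, 95% CI -0.35 to 1.36), which was not called (limma adjusted p = 0.498), and no alternative called it. In the annotation, 79.9% of its exon bases are shared with the read-through gene BCL2L2-PABPN1 on the same strand, whose mean was 2.32 normalised counts in inputs against 3.20.

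PAIP2 (ENSG00000120727), the repressor of PABPC proteins, lies on chromosome 5 (139341587 to 139369720, plus strand, 4 exons, 1456 nt). It had 856, 348 and 555 normalised counts in the inputs, in replicate order, and 1006, 799 and 1212 in the ORC1 IPs. ORC1 IP 2 fell below input 1 and the other ORC1 IPs lay above all inputs. The log2 fold change was 0.85 ± 0.39 (SE, limma adjusted p = 0.232, unadjusted p = 0.0503), with means of 586 ± 255 and 1006 ± 206 (SD, n = 3). A gene on the opposite strand, without a value in the table, covers 45.6% of its exon bases. The library kit was a stranded one, but the sources used here do not give whether the authors' counting used the strand.

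PAIP2 was also the only member whose canonical transcript holds the repeat GAAGAAGAA, searched on the sense strand. The repeat is shown because tandem GAA was the target of antisense oligonucleotides designed in the study. The oligonucleotide against GAA was longer than the repeat searched here. The study also reported a GAA motif in most of its ORC1 RIP RNAs. That motif came from a motif search, so its frequency and the share below are not alike. It occurred at 2 places in the coding exons of PAIP2, both in capitals below, and was present in 13.01% of the canonical transcripts of 16062 tested genes. The first lies at chr5:139363892-139363921 and the second at chr5:139364572-139364601, plus strand, GRCh38.
PAIP2 first repeat: gatggaaaatGAAGAAGAAttcaacagaca
PAIP2 second repeat: ggagttatggGAAGAAGAAtttattgaacg
The transcripts of the other 6 members, among them PABPC3, held at most 2 GAA units in a row.

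PAIP1 (ENSG00000172239), the activator of PABPC-dependent translation, lies on chromosome 5 (43526267 to 43557758, minus strand, 11 exons, 2780 nt). Inputs 1, 2 and 3 held 466, 463 and 355 normalised counts, and ORC1 IPs 1, 2 and 3 held 358, 467 and 442. Both groups spanned nearly the same range. The means of 428 ± 63.7 and 422 ± 57.0 (SD, n = 3) differed by -0.02 ± 0.34 on the log2 scale (SE), which was not called (limma adjusted p = 0.984), with a 95% confidence interval from -0.75 to 0.71. Its sequence is the least unique of the 7, as 56.8% of its 50-base stretches occurred again in the pseudogene PAIP1P2 (chromosome 17, 18650195 to 18652688). PAIP1P2, named after this search, held 341 ± 130 and 432 ± 114 normalised counts in both groups (SD, n = 3, log2 fold change 0.37, limma adjusted p = 0.629).

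Levels were next set against transcript length, as normalised counts per kb of the canonical transcript. In inputs, PABPC1 led with 6669 ± 1660 per kb, followed by PABPC4 with 1535 ± 352 (SD, n = 3). The ranges of these 2 genes did not overlap each other or those of the rest. PABPC3 (480 ± 119 per kb), PAIP2 (403 ± 175) and PABPN1 (394 ± 189) followed with overlapping ranges, between 239 and 609 per kb, and PAIP1 (154 ± 22.9) and PABPC1L (140 ± 27.6) were lowest and overlapped as well (SD, n = 3). In ORC1 IPs, PABPC1 reached 20164 ± 6919 per kb, PABPC4 3028 ± 665 and PABPC3 1715 ± 498, while PABPC1L, at 517 ± 346, was above PAIP1, at 152 ± 20.5 (SD, n = 3). Lengths were not corrected for shared sequence. Of PAIP1, 56.8% of the 50-base stretches recurred elsewhere, as did 17.7% of those of PABPC1. Exon bases shared with another gene made up 79.9% in PABPN1, 67.0% in PABPC3 and 45.6% in PAIP2. For PABPC1L both shares were 0%. Whether this sharing alters the order was not tested. The members' transcripts were 1456 to 3142 nt long with a GC content of 39.0% to 58.9%, beside medians of 2751.5 nt and 48.6% over the tested genes matched.

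The make-up of the cytoplasmic family could be compared within a library, where the scaling of libraries cancels. In inputs, PABPC1 took 73.1% to 74.9% of the normalised counts of the 4 genes, PABPC4 18.1% to 19.97%, PABPC3 5.77% to 5.86% and PABPC1L 1.12% to 1.22%. The inputs were thus nearly alike, whereas the ORC1 IPs differed among themselves. PABPC1 took 68.6%, 82.6% and 79.9% in ORC1 IPs 1, 2 and 3, and PABPC4 took 22.7%, 8.70% and 11.2%. PABPC3 took 6.87%, 6.60% and 8.27%, above its share in every input, while PABPC1L took 1.84%, 2.12% and 0.568%, above its input shares in ORC1 IPs 1 and 2 and below them in ORC1 IP 3.

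**Figure D3:**
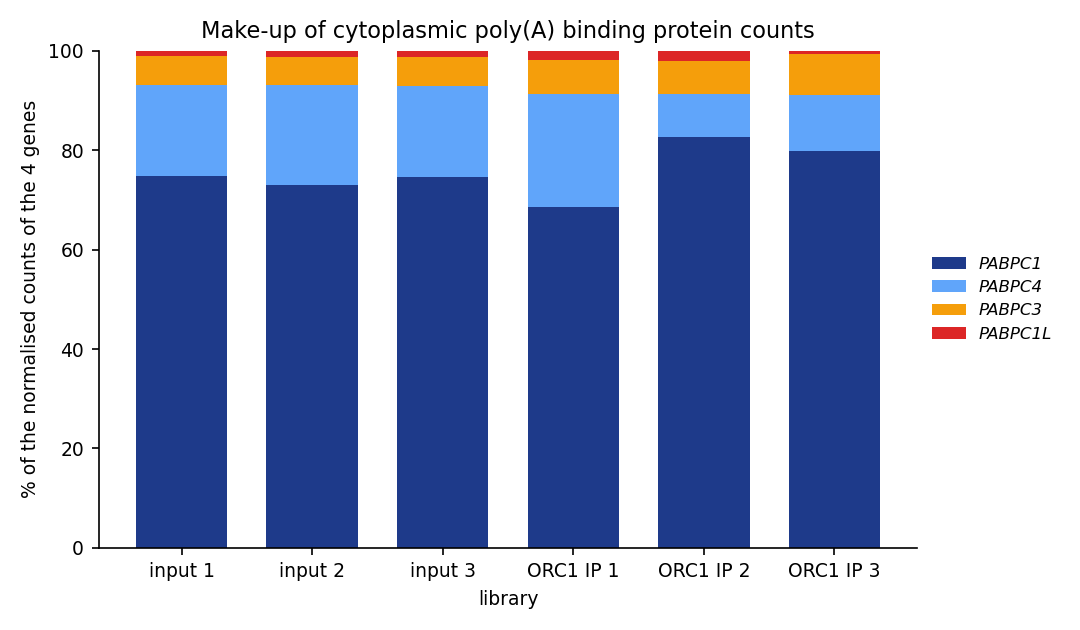
Share of PABPC1, PABPC4, PABPC3 and PABPC1L in the summed normalised counts of the 4 genes (%), 1 bar per library. The 3 inputs are nearly the same, while the share of PABPC4 runs from 8.70% in ORC1 IP 2 to 22.7% in ORC1 IP 1.

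The 4 ratios between members were tested with two-sided exact permutation tests, in which 3 against 3 libraries cannot give a p below 0.1 (adjusted over the 4 ratios). The log2 ratio of PABPC3 to PABPC1 was -3.68, -3.66 and -3.68 in the inputs and -3.32, -3.64 and -3.27 in the ORC1 IPs. The groups did not overlap and differed by 0.26, at the smallest p the test can give (exact p = 0.1, adjusted 0.2), and ORC1 IP 2 lay next to the inputs. The log2 ratio of PABPN1 to PABPC1 went from -4.81 ± 0.43 to -5.87 ± 0.26 (SD, n = 3), again without overlap (exact p = 0.1, adjusted 0.2). The ratio of PABPC4 to PABPC1 went from -1.98 ± 0.10 to -2.56 ± 0.86 (SD, n = 3, exact p = 0.4, adjusted 0.4), and that of PAIP2 to PAIP1 from 0.37 ± 0.69 to 1.24 ± 0.40 (SD, n = 3, exact p = 0.2, adjusted 0.267). Both overlapped between the groups. The difference of -0.58 in PABPC4 to PABPC1 ranged from -1.06 without ORC1 IP 1 to -0.23 without ORC1 IP 2, and that of 0.87 in PAIP2 to PAIP1 from 0.48 without input 2 to 1.12 without input 1. With a library left out, the difference in PABPC3 to PABPC1 ranged from 0.19 to 0.38, and that in PABPN1 to PABPC1 from -1.30 to -0.88.

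Enrichment per replicate, taken as the log2 difference between same-numbered ORC1 IP and input libraries, varied more for some members than for others. For PABPC1 it was 0.56, 2.04 and 2.08 in replicates 1, 2 and 3, and for PABPC3 it was 0.92, 2.06 and 2.48. PABPC1L gave 1.41, 2.71 and 0.87. PABPC4 stayed between 0.67 and 1.27. PABPN1 was at -0.57 in replicate 1 and at 1.22 and 0.85 in replicates 2 and 3, and PAIP1 lay between -0.38 and 0.32. Replicate 1 was thus the lowest for PABPC1, PABPC3, PABPN1 and both PAIP genes, and not for PABPC4 or PABPC1L.

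As a description over the 6 libraries, which share depth and group differences, genes with the most similar profile were sought among 11406 genes with a mean of at least 100. For PABPC3 these were UHRF2 (Pearson r 0.994) and SAMD4B (0.993), for PABPC4 NCOA6 and ZNF823 (0.998 each), and for PABPC1L ZNF692 (0.998) and CCNL2 (0.997). PAIP2 was nearest to MTA3 (0.993) and RSPH3 (0.992), and PAIP1 to ZBTB37 (0.981) and POLR3F (0.965). Among the members, PABPC1 and PABPC3 were closest to each other (0.988), and PAIP1 had an r of -0.09 to 0.37 with the rest.

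The wider poly(A) pathway was taken from a list of 76 genes in 4 roles, of which 75 were tested. Of these, 4 were called higher, against the background of 2.28%, and 1 was called lower, against 1.42%, with a median log2 fold change of 0.33. These counts rested on single libraries: 0 genes were called higher without input 2, input 3 or ORC1 IP 3, 1 without ORC1 IP 1, 2 without input 1, and 21 without ORC1 IP 2. The shares over all genes moved as well, to 0.291%, 0.0363% and 0.145% without input 2, input 3 or ORC1 IP 3, 1.19% without ORC1 IP 1, 2.44% without input 1 and 11.9% without ORC1 IP 2. No gene (0) was called lower without any 1 library other than ORC1 IP 2, and 4 were without that library, where 6.38% of all genes were called lower. None of the 18 cytoplasmic deadenylase genes, which encode CCR4-NOT, PAN2-PAN3, PARN and their cofactors, was called in either direction. Their log2 fold changes ran from -0.75 for the cofactor BTG2 to 0.92 for the ubiquitin ligase CNOT4, with a median of 0.14.

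None of the 23 tested partners of PABPC proteins was called either, with a median log2 fold change of 0.49. The highest was EIF4G3, a cap-complex scaffold that binds PABPC proteins, at 1229, 939 and 730 normalised counts in the inputs and 5893, 1292 and 6187 in the ORC1 IPs. Its groups did not overlap, although ORC1 IP 2 was near the inputs (log2 fold change 1.93 ± 0.56, SE, limma adjusted p = 0.0708). The lowest was EIF4A1, the RNA helicase of the same complex, at -1.33 ± 0.61 (SE, limma adjusted p = 0.228). It had only 247 ± 167 normalised counts in inputs against 101 ± 67.8 (SD, n = 3), with overlapping groups and 47 to 275 recovered reads per library.

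Calls were found in the 2 nuclear lists, which had 2 higher genes each, of 21 and 13 tested, against 2.28% of all genes. Past the threshold of the study in limma were 4 of the 23 PABPC partners and 0 of the 18 deadenylases. In the nuclear lists 2 of 21 and 5 of 13 passed it, against 10.9% of all genes. Whether the lists differ was not tested. Among 21 cleavage and polyadenylation factors, with a median log2 fold change of 0.26, RBBP6 had 1707, 1533 and 855 normalised counts in the inputs and 16576, 2740 and 8381 in the ORC1 IPs (log2 fold change 2.47 ± 0.60, SE, limma adjusted p = 0.0445). PCF11, which links cleavage to transcription termination, was higher as well (993 ± 419 against 4010 ± 1930, SD, n = 3, limma adjusted p = 0.0447). The phosphatase subunit PPP1CA was lower, with 5834 ± 1403 normalised counts in inputs against 1840 ± 362 (SD, n = 3, limma adjusted p = 0.0486), a call that was lost without a filter, with edgeR and with the replicate block. Among 13 genes of nuclear poly(A) RNA binding, export and decay, with a median of 0.97, ZFC3H1, which retains and targets polyadenylated nuclear RNA for decay, rose from 658 ± 375 to 3491 ± 1460 (SD, n = 3, log2 fold change 2.45 ± 0.47, SE, limma adjusted p = 0.0192). THOC1, of the THO export complex, was also higher, at 231 ± 88.0 against 893 ± 378 (SD, n = 3, limma adjusted p = 0.0308), and the lowest of this list was the export adaptor ALYREF, at a log2 fold change of -1.23 (adjusted p = 0.220). As with PABPC4, the ORC1 IP 2 value was the lowest of its group for RBBP6, PCF11, ZFC3H1 and THOC1, whereas it was the highest for PABPC1 and PABPC1L.

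**Figure D4:**
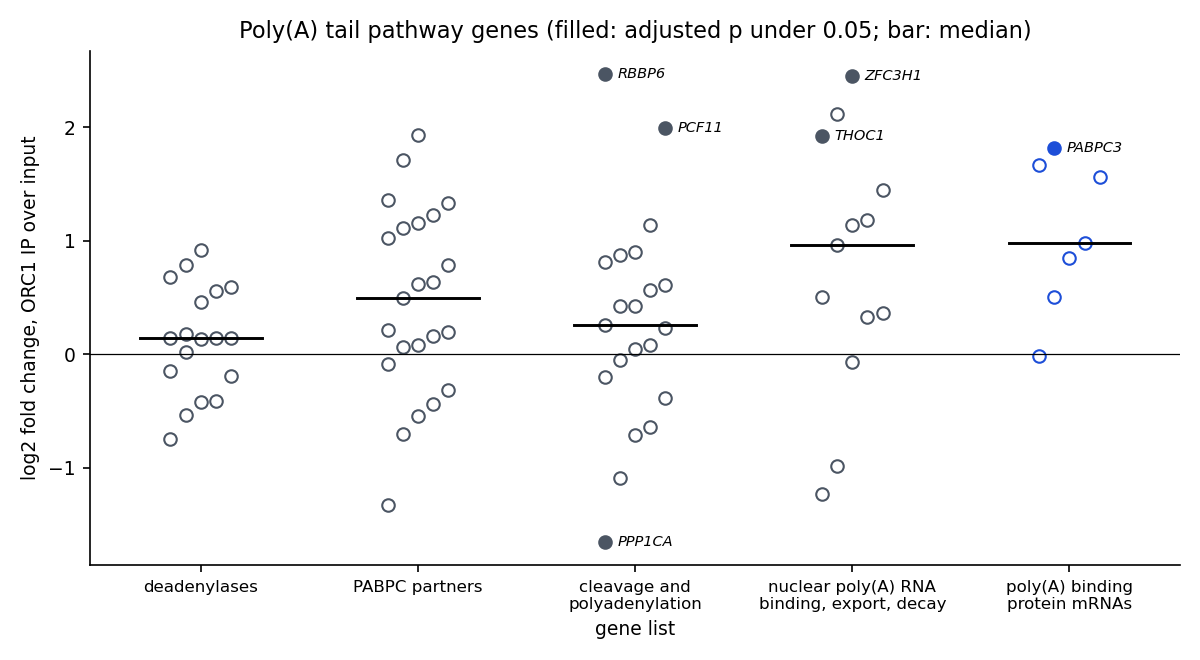
Log2 fold change of the ORC1 IP over input for 75 genes of the poly(A) pathway in 4 lists and for the 7 members, 1 point per gene, with bars at the list medians and filled points at a limma adjusted p under 0.05. The filled points are RBBP6, PCF11, PPP1CA, ZFC3H1 and THOC1 in the nuclear lists and PABPC3 among the members, whose median was 0.98.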

How the data were processed

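The authors lysed nuclei by douncing and sonication, pre-cleared the lysate and immunoprecipitated with an anti-ORC1 antibody. Libraries were made with the TruSeq Stranded Total RNA kit. According to the methods and the submitters' processing notes, Trimmomatic was used for trimming, STAR for alignment to hg19 and featureCounts for counts per gene, after the authors had removed reads on GL contigs. The deposited signal of a library is its gene counts divided by 1 size factor (normalised counts). The authors' deposited table also holds their own comparison, with log2 fold changes, their SE and a Wald score, and p-values, and none of these were used.

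All values were whole multiples of 1 read within 0.001 (100% in each library), so reads were recovered. Genes with a mean of at least 10 were tested on log2(normalised count + 1), which understates changes of low genes, with limma 3.58.1 (intensity trend, no block, R 4.3.3) and Benjamini-Hochberg adjustment, called at an adjusted p under 0.05. Alternatives were pseudocounts of 0.5 and 5, no filter or one at 50, scaling by total count or TMM, edgeR 4.0.16 and DESeq2 1.42.0 on the reads, a replicate block, leaving out each library, and, added after seeing the data, limma without trend and summed copies. The limma fit with trend and no block was tested on simulated data, and the alternatives were not. The simulated counts had the same dispersion for all genes and both groups and no library that stood apart. That test therefore does not cover the spread between the ORC1 IPs seen here. Genes named beyond the members were those with related symbols, pathway genes called or at the ends of each role list, the 2 most similar profiles (some are not reported here), and copies found by sequence. The members and lists were chosen with earlier results of these data known. The labels name each input for its RIP replicate, but same-numbered libraries deviated from their group means with correlations of -0.322, -0.240 and 0.215.

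Transcripts, coordinates and sequences came from GENCODE v44 on GRCh38, matched by Ensembl identifier (16062 tested genes), and all 50-base stretches were searched on both strands of the genome. Python 3.11.15, Biopython 1.88, pandas 2.3.3 and scipy 1.17.1 were used.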

Additional observations from a re-analysis of the deposited data

How the results depend on the processing

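The number of members called higher, 1 in the fit reported, was 0 with total count scaling and 0 with limma without its trend. It was 2 with edgeR, 3 with DESeq2, and 3 with DESeq2 and a replicate block. The shares of all genes called higher moved too, from 2.28% to 0.527%, 0.866%, 2.57%, 6.60% and 5.11% in that order. With a replicate block in limma the number was 1, PABPC1L in place of PABPC3 (2.62% of all genes). The number ranged from 0 to 2 when single libraries were left out, beside 0.0363% to 11.9% of all genes. Members past the threshold of the study, 2 as reported, ranged from 2 to 5 when a library was left out (5 without ORC1 IP 2), while the share of all genes past it ranged from 6.66% to 15.7% (15.7% without ORC1 IP 2). Pathway genes called higher, 4 as reported, were 2 with total count scaling, 10 with DESeq2, 8 with DESeq2 and a replicate block, 0 without the trend and 0 to 21 with a library left out. The shares of all genes called higher in these settings are those given above. Pathway genes called lower, 1 as reported, were 0 without a filter, 0 with edgeR, 2 with DESeq2, 0 with a replicate block in limma, 0 without the trend and 0 to 4 with a library left out. The shares of all genes called lower were 1.16%, 1.31%, 3.57%, 1.16%, 0.581% and 0.139% to 6.38% in the same order. The log2 fold change of PAIP1, -0.02 as reported, ranged from -0.15 to 0.10 with a library left out. It was above 0 without input 1 (0.05), input 2 (0.05) or ORC1 IP 1 (0.10). The cause of these moves was not tested.

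Over all genes, 376 were called higher and 234 lower. Total count scaling, which shifted the median of all genes from 0.01 to -0.19 (log2), gave 87 and 96, and the log2 fold changes of PABPC1, PABPC3, PABPC4 and PABPC1L were then 1.34, 1.60, 0.77 and 1.45. DESeq2 gave 1254 and 677 (902 and 467 with the block), limma without the trend 143 and 96, and leaving out a library 6 to 1965 and 23 to 1053. Same-numbered inputs and ORC1 IPs did not deviate together in all 3 pairs. The replicate block changed the limma calls of PABPC3, PABPC1L and the pseudogene PABPC1P4. It changed that of no other member.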
